A study of Arabidopsis thaliana with 14 samples.

Results

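The genes described here are 48 nuclear genes of the photosynthetic apparatus of Arabidopsis, chosen by their gene identifiers and not by their expression. They comprise 4 LHCA genes, 14 LHCB genes, 12 genes of photosystem I subunits, 10 genes of photosystem II subunits, 3 genes of electron carriers and 5 genes of Rubisco and its activase. Each of the 48 was present among the 33602 genes of every library and passed the filter on low values that left 23187 genes to be tested. Poly-A RNA of whole 14-day-old plants in the Col-0 background was sequenced in 14 libraries, and the values are RPKM, read counts scaled to the length of each gene's exons and to the mapped reads of the library. Col wild type, hda6-6, hda5-1 and hda9-1 had 3 libraries each, while fve-4 and fld-6 had 1 library each. The hda6-6 (axe1-5) allele changes a splice site of the histone deacetylase gene HDA6, fve-4 carries a point mutation that stops translation of the WD40 repeat protein FVE early, and fld-6 has a T-DNA in the second exon of the histone demethylase gene FLD. The labels describe hda5-1 and hda9-1 as homozygous mutants of the histone deacetylase genes HDA5 and HDA9. Each mutant is a single allele, so a second change in the same line cannot be told apart from the named one.

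In the light reactions, pigment proteins of the LHC family collect light and pass the energy to photosystem II, whose oxygen-evolving complex splits water, and to photosystem I. Electrons flow between the photosystems through the cytochrome b6f complex and the small copper protein plastocyanin. The Calvin cycle then fixes carbon dioxide with Rubisco, whose small subunit is encoded in the nucleus by the RBCS family and whose activity is kept up by Rubisco activase. The nuclear genes of these proteins are among the most strongly transcribed in a green plant, and many are known to respond to light, to signals from the chloroplast and to the circadian clock. Trimeric LHCII, the main antenna of photosystem II, is built from the products of the LHCB1, LHCB2 and LHCB3 genes, and the LHCB2 protein is known for its phosphorylation in state transitions, in which part of the antenna moves to photosystem I.

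Among the 48 genes, the LHCB2 genes carried the largest decreases in hda6-6, hda5-1, hda9-1 and fve-4, and the plastocyanin gene PETE1 the only increases that passed the test against Col. The DNA just upstream of these genes is shown so that members of the same family can be compared. Each line gives 160 bases up to the annotated gene start, 5′ to 3′ in the direction of the gene, read from the RefSeq genome of build TAIR10.1. Capitals mark exact matches, on either strand, to CCAATC (the motif bound by GLK transcription factors), CACGTG (the G-box), AAAAATCT (a binding site of the clock protein CCA1) or GATAAG (the I-box, which reads CTTATC on the other strand).
LHCB2.1, chr2:1824481-1824640, minus strand: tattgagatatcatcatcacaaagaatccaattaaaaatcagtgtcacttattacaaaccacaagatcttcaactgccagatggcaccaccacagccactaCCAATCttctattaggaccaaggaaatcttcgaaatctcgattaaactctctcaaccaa
LHCB2.2, chr2:1800473-1800632, minus strand: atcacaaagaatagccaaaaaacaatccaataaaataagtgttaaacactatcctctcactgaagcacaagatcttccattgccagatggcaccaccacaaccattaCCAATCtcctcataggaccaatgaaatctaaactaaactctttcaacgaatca
LHCB2.3, chr3:10255746-10255905, plus strand: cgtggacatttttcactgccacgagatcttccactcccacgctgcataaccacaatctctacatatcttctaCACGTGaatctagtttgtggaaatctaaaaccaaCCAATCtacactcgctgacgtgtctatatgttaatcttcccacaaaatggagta
LHCB1.1, chr1:10475970-10476129, minus strand: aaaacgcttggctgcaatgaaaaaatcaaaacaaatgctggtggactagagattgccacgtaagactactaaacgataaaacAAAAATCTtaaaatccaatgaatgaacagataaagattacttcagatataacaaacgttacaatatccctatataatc
LHCB1.3, chr1:10477725-10477884, plus strand: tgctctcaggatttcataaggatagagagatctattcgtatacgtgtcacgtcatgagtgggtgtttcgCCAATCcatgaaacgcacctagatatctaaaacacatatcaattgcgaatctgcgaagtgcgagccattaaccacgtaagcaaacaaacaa
PETE1, chr1:28554931-28555090, minus strand: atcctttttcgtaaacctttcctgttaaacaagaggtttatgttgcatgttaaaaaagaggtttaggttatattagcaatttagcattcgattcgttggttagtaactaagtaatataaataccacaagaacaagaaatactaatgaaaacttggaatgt
PETE2, chr1:7043393-7043552, minus strand: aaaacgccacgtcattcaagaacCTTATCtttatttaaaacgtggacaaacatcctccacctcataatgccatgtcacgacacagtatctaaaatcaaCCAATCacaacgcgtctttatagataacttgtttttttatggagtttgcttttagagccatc
The 3 LHCB2 promoters each held CCAATC on the coding strand at a similar distance, 59 to 54 bases before the start in LHCB2.1, 53 to 48 in LHCB2.2 and 54 to 49 in LHCB2.3. LHCB2.1 and LHCB2.2 also shared a run of 20 bases, tgccagatggcaccaccaca, whereas the longest run that either shared with LHCB2.3 was 10 bases. LHCB2.3 held a G-box at 88 to 83 bases before the start. LHCB1.1 held the CCA1 site and no CCAATC, and its divergently transcribed neighbour LHCB1.3 held CCAATC and no CCA1 site. LHCB1.2, on the other side of LHCB1.1 and not shown, held none of the marked motifs in its 160 bases. The CCA1 site was also matched in LHCB1.4. PETE2 held CCAATC and an I-box, and none of these motifs was matched in PETE1. These matches describe the letters only.

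Over 250 bases upstream, CCAATC was present in 14 of the 48 genes (29.2%) and in 10.23% of 27443 promoters of the annotation. The I-box was present in 13 genes (27.1%, against 12.29% of all promoters) and the G-box in 9 genes (18.8%, against 6.49%). The CCA1 site was found in 5 genes (10.4%, against 6.69%), and the evening element AAAATATCT in none of the 48 (against 2.36%).

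In Col, the 48 genes together made up 25.7 to 29.6% of the summed RPKM of a library. The share was 23.5 to 25.9% in hda6-6, 21.7 to 24.4% in hda5-1, 21.5 to 23.2% in hda9-1, with fve-4 at 20.6% and fld-6 at 22.8%. The median of the 48 gene means was 3655 RPKM in Col and 2492 to 2779 RPKM in the mutants. LHCB1.3 had the highest level in every library, from 27340 to 39260 RPKM, and LHCB4.3, an LHCB4 form with low expression, the lowest, from 2.82 to 10.1 RPKM. In whole plants, fewer green cells and less of these RNAs per cell cannot be told apart. The median coefficient of variation between the libraries of a genotype was 8.9% in hda6-6, 9.2% in Col, 10.1% in hda5-1 and 10.8% in hda9-1.

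The labels were checked on the mutated genes. HDA6 was lower in hda6-6 (3.31 ± 0.415 against 9.28 ± 0.717 RPKM in Col, SD, n = 3), HDA5 in hda5-1, HDA9 in hda9-1 and FVE in the fve-4 library (0.227 RPKM against 20.9 to 22.3 in Col), each with a limma adjusted p of 6.75e-06 or less. FLD was at 3.52 RPKM in the fld-6 library and 3.42 to 4.08 in Col, so the level of the whole gene does not show the insertion. FLC is a flowering repressor that FVE, FLD and HDA6 keep low. It was at 81.6 RPKM in the fld-6 library, 45.6 in the fve-4 library and 7.92 to 9.32 in hda5-1. It was at 3.91 to 5.06 RPKM in Col, 2.28 to 3.41 in hda6-6 and 1.82 to 2.42 in hda9-1. For FLC, the hda6-6 libraries thus lay below those of Col. The paper instead reports raised FLC in this mutant by real-time RT-PCR, in older plants. The reason for this difference was not tested.

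Each mutant was compared with Col with limma on log2(RPKM + 0.1), and genes with an adjusted p under 0.05 (Benjamini-Hochberg, over all 23187 genes) were called. In hda6-6, 10 of the 48 genes were called lower, where 14.9% of all genes were, and 1 was called higher, where 18.8% of all genes were. In hda5-1, 9 were called lower (all genes 11.2%) and 1 higher (all genes 15.0%). In hda9-1, 9 were called lower (all genes 10.1%) and 1 higher (all genes 14.7%). The shares of the 48 genes called lower were 20.8% in hda6-6, 18.8% in hda5-1 and 18.8% in hda9-1. In each of these mutants this was above the share of all genes by few genes, and the share called higher was 2.08%. The 11 calls of hda6-6 became 7 without Col replicate 1 or 3 or without hda6-6 replicate 1 or 3, and the 10 calls of hda9-1 became 5 with only hda9-1 and Col in the fit. With 7 calls, the share of the 48 genes in hda6-6 was not above the 14.9% of all genes called lower in the full fit.

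In the fve-4 library, 8 of the 48 genes were called lower, against 6.78% of all genes, and none higher, against 15.4%. In the fld-6 library, limma called none of the 48 in either direction, against 1.38% of all genes higher and 1.71% lower. At an unadjusted p under 0.05, 13 of the 48 were lower in that library (all genes 7.78%) and 0 higher (all genes 8.60%). With a further requirement of 2-fold, the numbers called lower were 2 in hda6-6 (all genes 4.96%), 3 in hda5-1 (3.94%), 3 in hda9-1 (3.75%), 6 in fve-4 (3.98%) and 0 in fld-6 (1.13%). Under this rule the share of the 48 genes was below that of all genes in hda6-6 and fld-6. It was above that share in hda5-1, hda9-1 and fve-4, in hda5-1 and hda9-1 by few genes. With only fve-4 and Col in the fit, 4 of the 8 calls held, those of LHCB1.1 (just under the threshold), LHCB2.1, LHCB2.2 and LHCB2.3. The tests of fve-4 and fld-6 rest on 1 library each, whose spread was taken from the other genotypes.

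**Figure D1:**
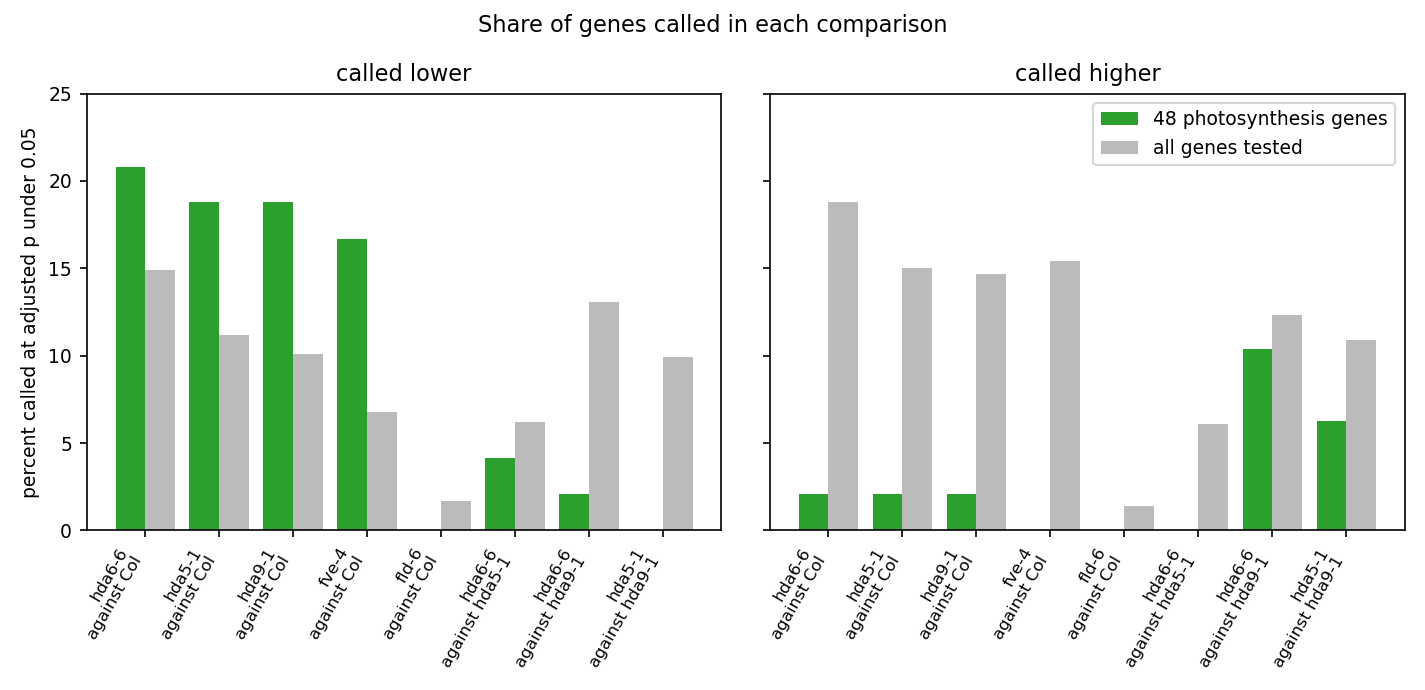
Percent of the 48 photosynthesis genes (green) and of all 23187 genes tested (grey) called lower (left) or higher (right) at an adjusted p under 0.05 in 8 comparisons. In the comparisons of hda6-6, hda5-1, hda9-1 and fve-4 with Col the green bars for lower calls, 16.7 to 20.8%, stand above the grey ones, and those for higher calls reach at most 2.08%.

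Most of the 48 genes changed little. The median log2 fold change of the 48 was -0.18 in hda6-6, -0.27 in hda5-1, -0.27 in hda9-1, with fve-4 at -0.27 and fld-6 at -0.29, while the medians of all genes were 0.05, 0.04, 0.08, 0.19 and 0.02 in the same order. Negative values were found for 41 of the 48 genes in hda6-6, 43 in hda5-1, 44 in hda9-1, with fve-4 at 43 and fld-6 at 44, that is for 85.4 to 91.7% of them, against 35.0 to 46.7% of all genes. The 5 comparisons share the same Col libraries, so a Col library that is high for these genes lowers all of them. The LHCB group held the lowest log2 value in each mutant, from -0.74 in fld-6 to -3.58 in fve-4, as the map of fold changes shows.

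**Figure D2:**
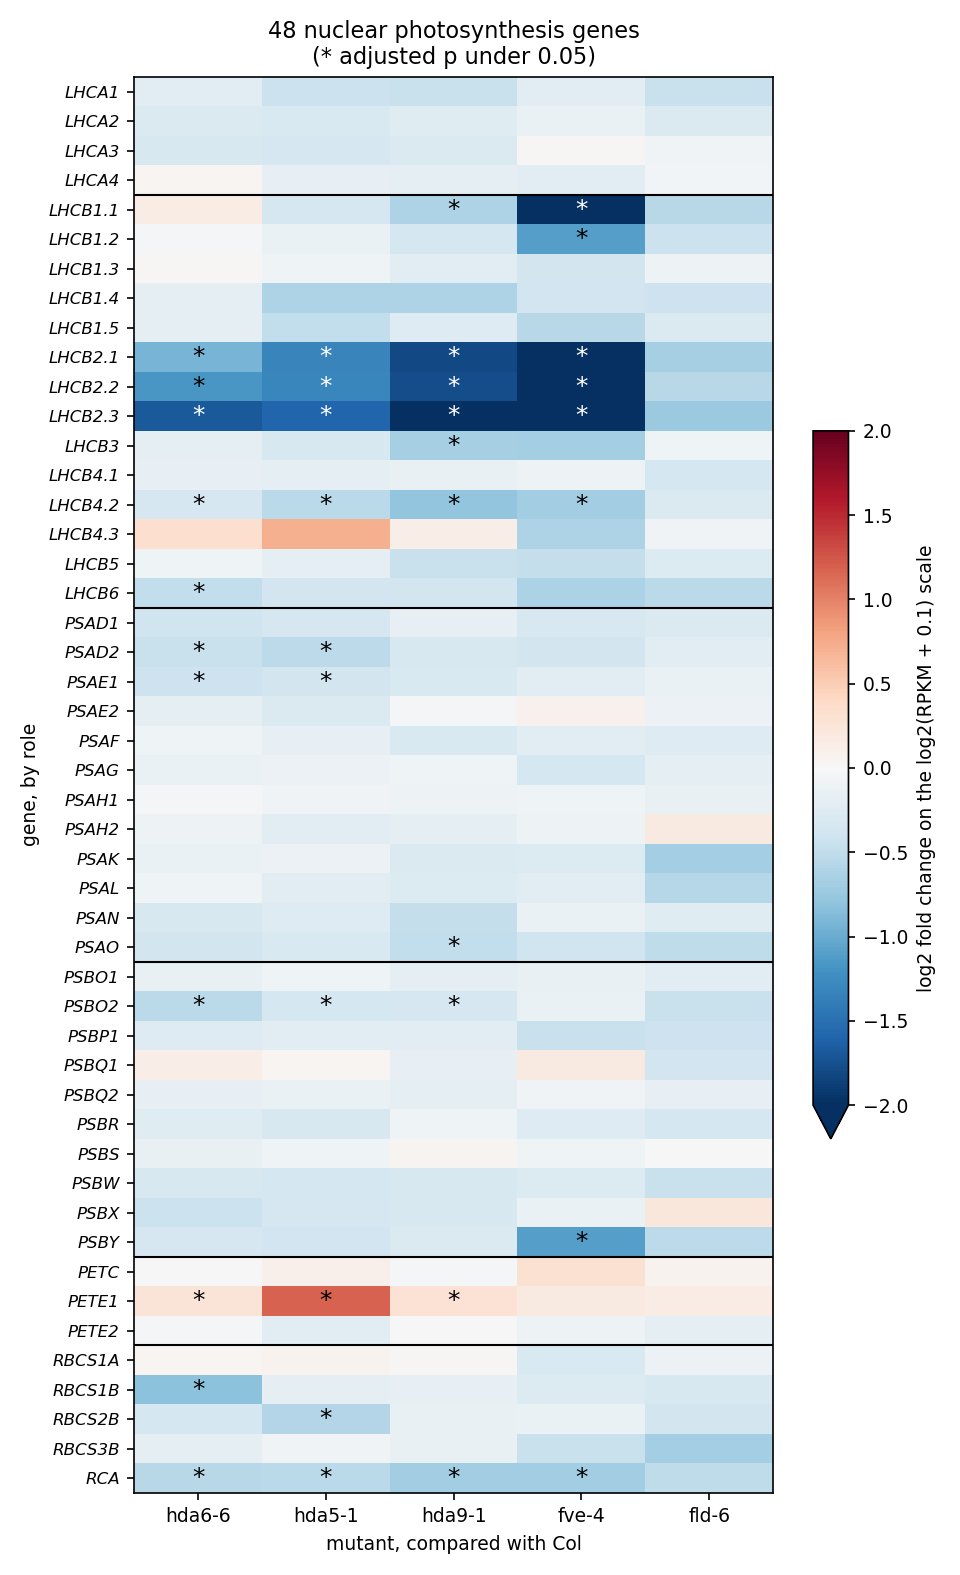
Log2 fold change on the log2(RPKM + 0.1) scale of each of the 48 genes (rows, in 6 role groups separated by lines) in each mutant compared with Col (columns), with an asterisk where the adjusted p was under 0.05. The darkest cells, at or below -2, are LHCB2.3 in hda9-1 and LHCB1.1, LHCB2.1, LHCB2.2 and LHCB2.3 in fve-4, and the strongest red cell is PETE1 in hda5-1.

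The 3 LHCB2 genes were down-regulated in hda6-6, hda5-1, hda9-1 and fve-4. LHCB2.1 and LHCB2.2 lie 22.5 kb apart on chromosome 2 (LHCB2.1 at 1822990 to 1824480, LHCB2.2 at 1799234 to 1800472), and LHCB2.3 lies on chromosome 3 at 10255906 to 10257489 (TAIR10.1). Their summed level was 7297 ± 1230 RPKM in Col, 3460 ± 423 in hda6-6, 2899 ± 426 in hda5-1 and 2061 ± 275 in hda9-1 (SD, n = 3). It was 1145 RPKM for fve-4 and 4686 RPKM for fld-6. The sums correspond to 0.47, 0.4, 0.28, 0.16 and 0.64 times the Col mean.

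LHCB2.1 (AT2G05100) was at 3717, 3113 and 4319 RPKM in the 3 Col libraries, 1943, 2162 and 1738 in hda6-6, 1849, 1245 and 1405 for hda5-1, 1247, 1047 and 896 in hda9-1, with fve-4 at 594 and fld-6 at 2316. All 11 mutant libraries lay below the lowest Col library, and the fve-4 library was the lowest of all. The log2 fold changes were -0.93 in hda6-6 (SE 0.183, limma adjusted p = 0.00211), -1.32 in hda5-1 (SE 0.183, adjusted p = 0.000231), -1.81 in hda9-1 (SE 0.183, adjusted p = 4.37e-05) and -2.63 in fve-4 (SE 0.259, adjusted p = 9.05e-05). That of fld-6, -0.67, did not pass (SE 0.259, adjusted p = 0.215).

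LHCB2.2 (AT2G05070) was at 2876, 2493 and 3516 RPKM in Col, 1259, 1506 and 1186 in hda6-6, 1318, 1083 and 1183 for hda5-1, 947, 877 and 750 in hda9-1, with fve-4 at 500 and fld-6 at 2004. Again no mutant library reached the lowest Col library, and the libraries of hda9-1 lay below those of hda6-6 and hda5-1. The gene was 2.24-fold lower in hda6-6 (adjusted p = 0.000115), 2.46-fold lower in hda5-1 (adjusted p = 7.04e-05), 3.43-fold lower in hda9-1 (adjusted p = 1.7e-05) and 5.86-fold lower in fve-4 (adjusted p = 3.56e-05), all by limma. The 1.46-fold lower level in fld-6 did not pass (adjusted p = 0.228).

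LHCB2.3 (AT3G27690), the least expressed of the 3, was at 547, 544 and 767 RPKM in Col, 166, 254 and 166 in hda6-6, 191, 187 and 236 for hda5-1, 137, 147 and 136 in hda9-1, with fve-4 at 50.9 and fld-6 at 367. Its fold changes were the largest of the family, with log2 values of -1.68 in hda6-6 (SE 0.178), -1.59 in hda5-1 (SE 0.178), -2.13 in hda9-1 (SE 0.178) and -3.58 in fve-4 (SE 0.251). The limma adjusted p was at most 4.76e-05 in these 4 comparisons and 0.157 in fld-6, where the value was -0.74. The calls of the LHCB2 genes against Col in hda6-6, hda5-1 and hda9-1 held under every alternative, including the removal of each single library compared. Those in fve-4 also held under the alternatives that were run, but rest on 1 library that could not be left out.

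The LHCB2 genes also differed between mutants, in comparisons that do not use the Col libraries. LHCB2.1 was higher in hda6-6 than in hda9-1 by 0.88 on the log2 scale (limma adjusted p = 0.00445), and LHCB2.2 by 0.62 (adjusted p = 0.0119), which was no longer called without hda6-6 replicate 2. LHCB2.2 and LHCB2.3 were higher in hda5-1 than in hda9-1 by 0.48 and 0.54 (adjusted p = 0.0456 and 0.0487), but these calls were lost when any 1 of the hda5-1 libraries was left out. No LHCB2 gene passed the test between hda6-6 and hda5-1. In comparisons added after the data were seen, the fve-4 library was lower than hda6-6 and hda5-1 for LHCB2.1, LHCB2.2 and LHCB2.3, by log2 values between -1.25 and -2.0 (limma adjusted p at most 0.00598), and lower than hda9-1 for LHCB2.3 only (adjusted p = 0.0107). The calls against hda5-1 and hda9-1 were lost with only the 2 genotypes in the fit. For LHCB2.3 the mean levels followed the order Col, fld-6, hda5-1, hda6-6, hda9-1 and fve-4. Of these neighbours only hda9-1 and fve-4 were separated by a test, and for this gene only. LHCB2.1 and LHCB2.2 instead stood higher in hda6-6 (means of 1948 and 1317 RPKM) than in hda5-1 (1500 and 1195 RPKM).

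**Figure D3:**
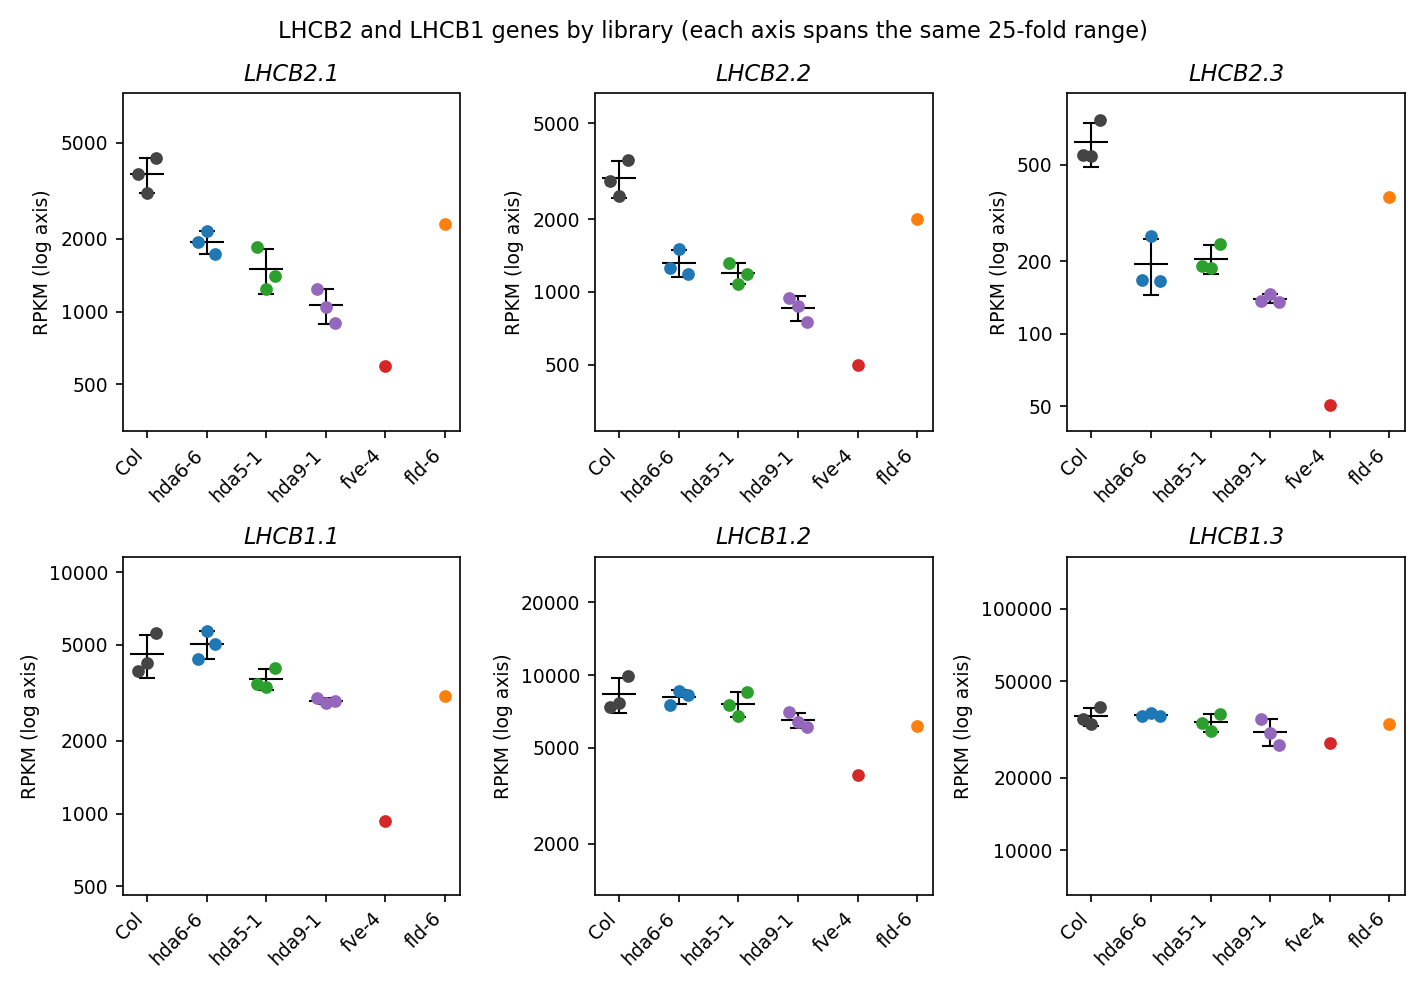
RPKM of LHCB2.1, LHCB2.2 and LHCB2.3 (top) and of LHCB1.1, LHCB1.2 and LHCB1.3 (bottom) in each library by genotype, on log axes that span the same fold range. Points are libraries, and lines with bars are the mean and SD of the 3 libraries of a genotype. The LHCB2 genes are highest in Col and lowest in fve-4, while LHCB1.3 lies between 27340 and 39260 RPKM throughout.

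The LHCB1 genes, which encode the most abundant protein of the same trimer, changed less. Their summed level was 70600 ± 8550 RPKM in Col, 68710 ± 4170 in hda6-6, 60370 ± 6460 in hda5-1, 57800 ± 3690 in hda9-1, with fve-4 at 47720 and fld-6 at 60090. The LHCB2 sum was 9.36 to 10.9% of the LHCB1 sum in Col, 4.55 to 5.36% in hda6-6, 4.17 to 5.8% in hda5-1, 3.33 to 3.87% in hda9-1, 2.4% in fve-4 and 7.8% in fld-6. This ratio does not depend on how a library was scaled, and the ranges of the mutants lay below that of Col. No LHCB1 gene was called in hda6-6 or hda5-1.

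LHCB1.1, LHCB1.2 and LHCB1.3 are neighbours on chromosome 1, with 1.2 kb between LHCB1.2 and LHCB1.1 and 1.9 kb between LHCB1.1 and LHCB1.3. LHCB1.1 (AT1G29920) was at 3894, 4211 and 5610 RPKM in Col, 4375, 5709 and 5048 in hda6-6, 3450, 3339 and 4012 for hda5-1, 3019, 2858 and 2919 in hda9-1, with fve-4 at 934 and fld-6 at 3064. It was 4.83-fold lower in fve-4 (limma adjusted p = 0.000121) and 1.54-fold lower in hda9-1 (adjusted p = 0.0172), a call that was lost without Col replicate 3. In the comparisons added after the data were seen, the fve-4 library was also below hda6-6, hda5-1, hda9-1 and fld-6 for this gene, with log2 differences of -2.43, -1.94, -1.65 and -1.71 (adjusted p at most 0.0133). The calls against hda5-1 and hda9-1 were lost with only the 2 genotypes in the fit.

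LHCB1.2 (AT1G29910) was at 3840 RPKM in fve-4, 7371, 7695 and 9898 in Col, 7501, 8560 and 8231 in hda6-6, 7497, 6748 and 8536 for hda5-1, 7012, 6382 and 6073 in hda9-1 and 6144 in fld-6. It was 2.15-fold lower in fve-4 than in Col (limma adjusted p = 0.00836), and was not called in the other mutants. LHCB1.3 (AT1G29930), next to LHCB1.1 on the other strand, was at 34930, 33290 and 39260 RPKM in Col and 27820 in fve-4, a log2 value of -0.36 that did not pass (SE 0.332, adjusted p = 0.481). The share of LHCB1.1 in the LHCB1 sum was 5.93 to 6.97% in Col and 1.96% in fve-4, and that of LHCB1.3 was 48.8 to 53.2% in Col and 58.3% in fve-4. LHCB1.4 and LHCB1.5, a divergent pair on chromosome 2, were not called in any comparison with Col. RPKM of near-identical copies is uncertain, since 10.6 to 20.5% of the 50-base windows of the LHCB1 transcripts, 22.7% of those of LHCB2.1 and 28.2% of those of LHCB2.2 were identical to another gene. LHCB2.3 shared none.

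Among the other LHCB genes, LHCB4.2, which encodes the minor antenna protein CP29, was lower in hda5-1 by 0.54, in hda9-1 by 0.79 and in fve-4 by 0.70 on the log2 scale (limma adjusted p = 0.00485, 0.000566 and 0.0121). Its 3 libraries were at 2501, 2293 and 2824 RPKM in Col, 1999, 2080 and 1911 in hda6-6, 1753, 1616 and 1857 for hda5-1 and 1441, 1559 and 1386 in hda9-1, and fve-4 stood at 1561 and fld-6 at 2062. No mutant library reached the lowest Col library. In hda6-6 the value of -0.34 passed the test (adjusted p = 0.0414), but it was lost under another scaling and whenever an hda6-6 library was left out. LHCB4.1, the most expressed CP29 gene, was not called, and the share of LHCB4.2 in the LHCB4 sum was 37.8 to 42.1% in Col and 27.8 to 30.7% in hda9-1.

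LHCB3, the third component of the trimer, was lower in hda9-1 by 0.66 on the log2 scale (limma adjusted p = 0.0117), a call that was lost with only hda9-1 and Col in the fit, and was at -0.69 in fve-4 (adjusted p = 0.0517). LHCB6, the gene of the minor antenna protein CP24, was called lower in hda6-6 (log2 fold change -0.50, adjusted p = 0.0242) but not without hda6-6 replicate 2 or 3, or Col replicate 1 or 3. LHCB5, the gene of CP26, was not called. LHCB4.3 had the highest fold change of the group, 0.71 in hda5-1, which did not pass (SE 0.297, limma adjusted p = 0.104). Its RPKM of 3.09, 5.52 and 4.89 in Col and 4.93, 10.1 and 7.53 for hda5-1 overlapped, and its reads were estimated at 95 to 374 per library, against at least 1741 for every other member.

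The 4 LHCA genes, which encode the antenna of photosystem I, were not called in any comparison with Col. Their summed level was 25830 ± 2650 RPKM in Col, 22630 ± 2270 in hda6-6, 20890 ± 3280 in hda5-1, 21100 ± 3260 in hda9-1, with fve-4 at 23360 and fld-6 at 22260, and the ranges of hda6-6, hda5-1 and hda9-1 each overlapped that of Col. LHCA1, the most expressed, was at 8213, 7152 and 8418 RPKM in Col, 7311, 6630 and 6268 in hda6-6, 6479, 5192 and 6060 for hda5-1, 6255, 6502 and 4860 in hda9-1, with fve-4 at 6766 and fld-6 at 5827. Its log2 values ran from -0.23 to -0.44 (limma adjusted p at least 0.0824). LHCA4, with 7662, 6608 and 5888 RPKM in hda6-6 and 7031, 5839 and 6792 in Col, had the group's highest value, 0.03.

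The 12 genes of photosystem I subunits had medians between -0.17 and -0.28 in the 5 mutants, and every one was at a negative value in hda6-6, hda5-1 and hda9-1. PSAD2 and PSAE1, genes of subunits on the stromal side where ferredoxin docks, were called lower in hda6-6 (log2 values of -0.45 and -0.42, limma adjusted p = 0.0242 and 0.0212) and in hda5-1 (-0.53 and -0.38, adjusted p = 0.0122 and 0.0415). All 4 of these calls were lost without Col replicate 3, and their paralogs PSAD1 and PSAE2 were not called. PSAO, the most expressed of the group, was at 6243, 4983 and 5795 RPKM in Col and 4401, 4137 and 3535 in hda9-1, a log2 value of -0.50 (adjusted p = 0.0468). That call was lost without Col replicate 1 or 3 or without hda9-1 replicate 2 or 3. PSAK was at 563 RPKM in fld-6 and 774 to 1088 in Col, and PSAH2 at 1307 and 1076 to 1232 RPKM, the lowest and highest values of the group, of which neither passed (adjusted p = 0.288 and 0.78). PSAF, PSAG, PSAH1, PSAL and PSAN were not called.

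Among the 10 genes of photosystem II subunits, PSBO2, the less expressed of the pair of genes for the manganese-stabilizing protein of the oxygen-evolving complex, was lower in hda6-6 by 0.54 on the log2 scale (limma adjusted p = 0.0026). Its libraries were at 1278, 1238 and 1368 RPKM in Col, 846, 953 and 874 in hda6-6, 1031, 987 and 1029 for hda5-1 and 961, 1181 and 935 in hda9-1. The changes of -0.35 in hda5-1 and -0.34 in hda9-1 passed (adjusted p = 0.0358 and 0.0406), but each was lost whenever 1 Col library was left out. PSBO1 was not called, and the share of PSBO2 in the pair was 18.4 to 19.1% in Col and 14.5 to 15.6% in hda6-6.

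PSBY, a small photosystem II subunit, was at 430 RPKM in the fve-4 library, 730, 965 and 1124 in Col, 631, 896 and 695 in hda6-6, 586, 795 and 765 for hda5-1, 611, 818 and 861 in hda9-1 and 640 in fld-6. It was 2.15-fold lower in fve-4 (limma adjusted p = 0.016), and was not called in the other mutants. In Col, hda6-6, hda5-1 and hda9-1, replicate 1 was the lowest library for PSBY, and the fve-4 library is also labelled replicate 1. PSBR, the most expressed of the group, was at 9201, 9204 and 10550 RPKM in Col and 8034 in fve-4 and was not called. PSBX had the highest value of the group, 0.22 in fld-6 (4467 RPKM against 3442 to 4130 in Col), which did not pass (adjusted p = 0.685). PSBS, needed for the dissipation of excess light, the extrinsic subunit genes PSBP1, PSBQ1 and PSBQ2 and the small subunit gene PSBW were not called against Col.

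The electron carriers were the group in which the summed level stayed closest to Col, at 0.99 to 1.01 times the Col mean in hda6-6, hda5-1, hda9-1 and fve-4 and 0.93 in fld-6. PETE1 (AT1G76100, chromosome 1, 28553883 to 28554930, 1 exon) was at 220, 225 and 251 RPKM in Col and 512, 492 and 565 for hda5-1. The other libraries were at 277, 293 and 262 in hda6-6, 274, 291 and 285 in hda9-1, with fve-4 at 263 and fld-6 at 258. The 3 hda5-1 libraries thus stood far above the remaining 11.

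Plastocyanin gene PETE1 was 2.25-fold higher in hda5-1 than in Col (log2 fold change 1.17, SE 0.087, limma adjusted p = 2.93e-06), under every alternative that was run. It was also higher in hda5-1 than in hda9-1 by 0.88 on the log2 scale (adjusted p = 5.89e-05) and lower in hda6-6 than in hda5-1 by 0.91 (adjusted p = 2.06e-05). The smaller increases in hda6-6 (0.26, adjusted p = 0.0385) and hda9-1 (0.29, adjusted p = 0.0306) passed in the main fit, kept their sign and lost the call under median-of-ratios and trimmed-mean scaling and without Col replicate 1 or 2. PETE2, which supplied 93 to 93.7% of plastocyanin RPKM in Col, was at 3276, 3026 and 3345 RPKM in Col and 2967, 2591 and 2813 for hda5-1, a log2 value of -0.21 that did not pass (adjusted p = 0.233). The share of PETE1 in the pair was 6.3 to 6.97% in Col, 14.7 to 16.7% in hda5-1 and 7.53 to 8.55% in the libraries of hda6-6, hda9-1, fve-4 and fld-6. PETC, the gene of the Rieske protein of the cytochrome b6f complex, was not called.

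**Figure D4:**
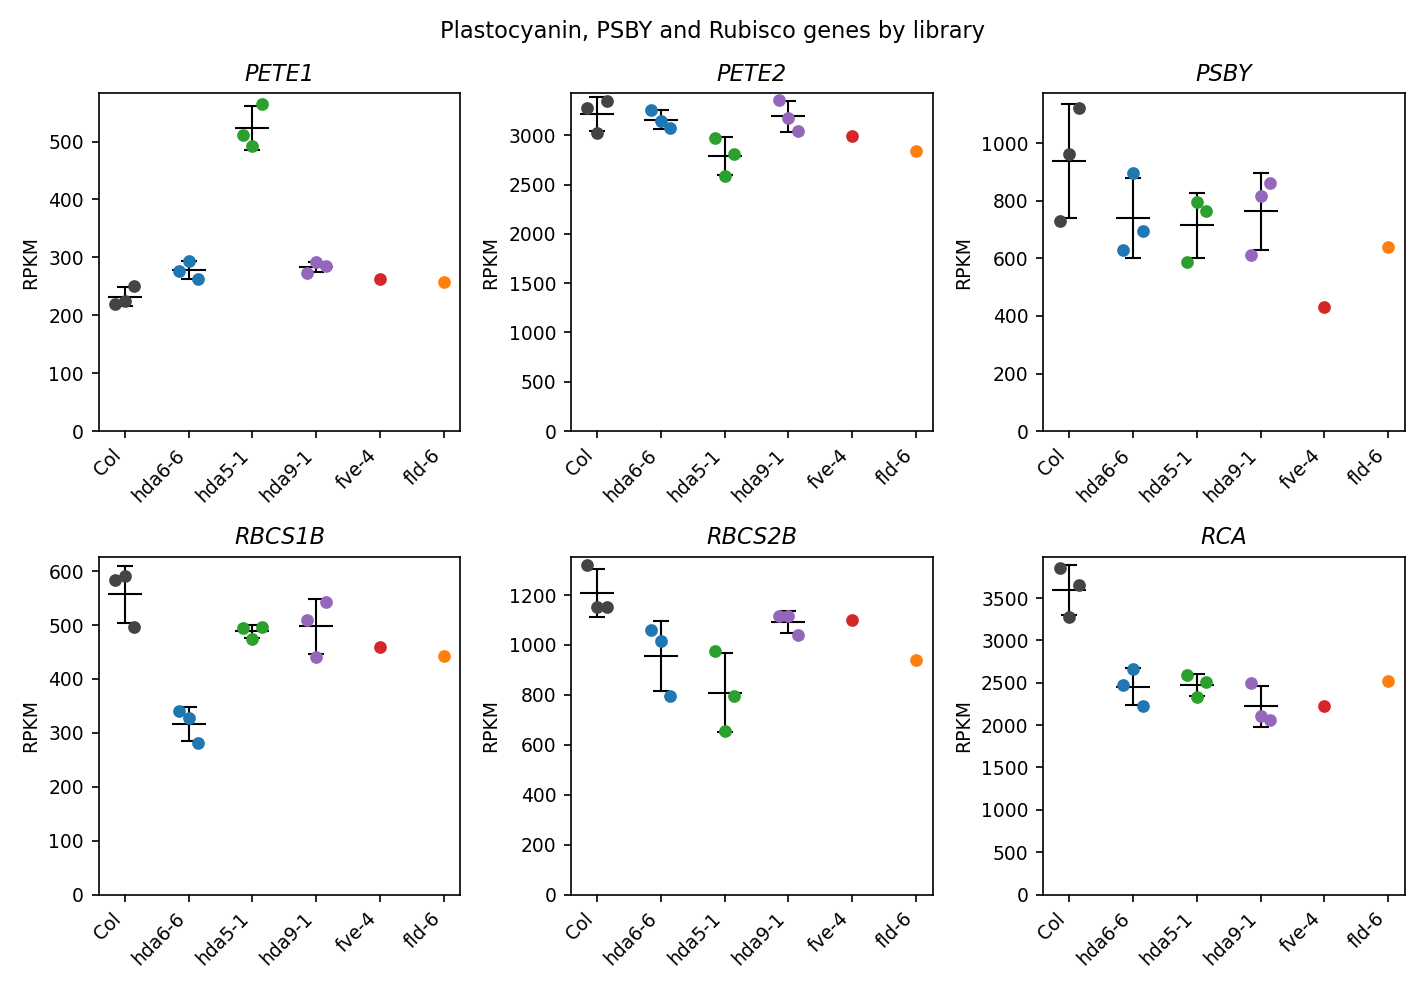
RPKM of PETE1, PETE2, PSBY, RBCS1B, RBCS2B and RCA in each library by genotype, on axes that start at 0. Points are libraries, and lines with bars are the mean and SD of 3 libraries. PETE1 stands apart in hda5-1 at 492 to 565 RPKM, RBCS1B is lowest in hda6-6 at 282 to 340 RPKM, and RCA is below every Col library in all mutant libraries.

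RCA, the gene of Rubisco activase (AT2G39730), was at 3856, 3276 and 3651 RPKM in Col, 2471, 2661 and 2224 in hda6-6, 2587, 2333 and 2509 for hda5-1, 2502, 2106 and 2061 in hda9-1, with fve-4 at 2226 and fld-6 at 2523. No mutant library reached the lowest Col library. The log2 fold changes were -0.55, -0.54, -0.70 and -0.69 in hda6-6, hda5-1, hda9-1 and fve-4 (limma adjusted p = 0.00657, 0.00985, 0.00261 and 0.0212). In fld-6 the value of -0.51 did not pass (adjusted p = 0.186).

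One RBCS gene was called against Col in hda6-6 and another in hda5-1. RBCS1B (AT5G38430), the least expressed of the family, was at 584, 591 and 497 RPKM in Col, 340, 328 and 282 in hda6-6, 495, 475 and 496 for hda5-1, 509, 441 and 542 in hda9-1, with fve-4 at 459 and fld-6 at 443. It was 1.76-fold lower in hda6-6 than in Col (limma adjusted p = 0.000136), and also lower in hda6-6 than in hda5-1 by 0.63 and than in hda9-1 by 0.65 on the log2 scale (adjusted p = 0.00239 and 0.00126). These 3 calls held under every alternative that was run. RBCS2B (AT5G38420), 1.1 kb away on chromosome 5, was at 1319, 1152 and 1153 RPKM in Col, 1059, 1014 and 795 in hda6-6, 976, 657 and 795 for hda5-1, 1116, 1118 and 1041 in hda9-1, with fve-4 at 1101 and fld-6 at 938. It was lower in hda5-1 by 0.59 (adjusted p = 0.0127), a call that was lost without Col replicate 1 or hda5-1 replicate 2 or with only hda5-1 and Col in the fit. Between hda6-6 and hda5-1 it was not called (0.25, adjusted p = 0.345).

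RBCS1A, which gave 50.5 to 55.2% of the RBCS sum in Col, was at 6903, 8138 and 7924 RPKM in Col, 7847, 8315 and 7431 in hda6-6, 7354, 8115 and 8519 for hda5-1, 8165, 7165 and 7925 in hda9-1, with fve-4 at 6161 and fld-6 at 7070, with no call. RBCS3B was at 4872, 4873 and 5466 RPKM in Col, 4513, 4960 and 3974 in hda6-6, 4827, 4412 and 5285 for hda5-1, 4633, 4658 and 4414 in hda9-1, with fve-4 at 3723 and fld-6 at 3173, and was not called (limma adjusted p at least 0.103). The share of RBCS1B in the family was 3.3 to 4.27% in Col and 2.24 to 2.47% in hda6-6. The family sum was 14490 ± 718 RPKM in Col and 13620 ± 1070 in hda6-6 (SD, n = 3), which overlap, as did hda5-1 and hda9-1 with Col. The sums of 11440 RPKM in fve-4 and 11620 RPKM in fld-6 lay below the lowest Col library, at 13678. From 14.0 to 21.4% of the 50-base windows of RBCS1B, RBCS2B and RBCS3B were identical to another gene.

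Other genes of the same pathways were followed on lists. The shares of all genes called lower were 14.9, 11.2, 10.1, 6.78 and 1.71% in hda6-6, hda5-1, hda9-1, fve-4 and fld-6, and those called higher 18.8, 15.0, 14.7, 15.4 and 1.38%. Of 15 other Calvin cycle genes, 6 were called lower in hda6-6, 1 in hda5-1, 4 in hda9-1, with fve-4 at 1 and fld-6 at 1, and 1 was called higher, in hda9-1. The lower calls, 40, 6.67, 26.7, 6.67 and 6.67% of the list, were above the share of all genes in hda6-6, hda9-1 and fld-6 (1 gene) and below it in hda5-1 and fve-4. PRK, the gene of phosphoribulokinase, was lower by 0.64 in hda6-6 on the log2 scale. Of 23 other genes of thylakoid electron transport and the ATP synthase, 8 were called lower in hda6-6, 4 in hda5-1, 3 in hda9-1, with fve-4 at 1 and fld-6 at 0, and 0, 1, 0, 3 and 0 higher. The lower calls were 34.8, 17.4, 13, 4.35 and 0% of the list, that is above the share of all genes in hda6-6, by less in hda5-1 and hda9-1, and below it in fve-4 and fld-6. Of 17 genes of chlorophyll synthesis, 7 were called lower in hda6-6, 3 in hda5-1, 5 in hda9-1, with fve-4 at 7 and fld-6 at 1, and 1, 1, 1, 0 and 0 higher. The lower calls, 41.2, 17.6, 29.4, 41.2 and 5.88% of the list, were above the share of all genes in each mutant, in hda5-1 and fld-6 by few genes. PORA had the largest called decrease of the list, with a log2 fold change of -2.97 in hda6-6, and was the gene called in fld-6, at -2.3. The genes called higher were CHLG in hda6-6 (0.28) and GSA1 in hda5-1 and hda9-1 (0.31 in each). GUN4, an activator of magnesium chelatase, was at 156 RPKM in Col, 42.7 in hda6-6, 41.6 in hda5-1, 44.9 in hda9-1, with fve-4 at 31.1 and fld-6 at 89.6 (means), with a limma adjusted p of at most 0.000142 except in fld-6 (0.124).

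Of 19 genes of transcription factors, sigma factors and photoreceptors known to act on photosynthesis genes, 13 were called lower in hda6-6, 9 in hda5-1, 8 in hda9-1, with fve-4 at 6 and fld-6 at 3, and 1, 0, 0, 1 and 1 higher. The lower calls were 68.4, 47.4, 42.1, 31.6 and 15.8% of the list, above the 14.9, 11.2, 10.1, 6.78 and 1.71% of all genes. The genes called higher were PIF4 in hda6-6 and fld-6 (log2 fold changes of 0.47 and 0.69) and SIG6 in fve-4 (0.66). The list, which also holds GUN1, was not split into genes that activate and genes that repress. These shares therefore do not describe activators alone. GLK2, a transcription factor that activates LHCB genes, was at 47.5 RPKM in Col, 8.63 in hda6-6, 8.86 in hda5-1, 20.6 in hda9-1, with fve-4 at 12.9 and fld-6 at 26.6 (means). It was called lower in all 5 mutants (limma adjusted p at most 0.0111). SIG5, a sigma factor for transcription in the chloroplast, was at 25.1 RPKM in Col, 5.59 in hda6-6, 6.82 in hda5-1, 4.43 in hda9-1, with fve-4 at 2.61 and fld-6 at 13.7 (adjusted p at most 0.0324).

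Several clock genes were also called in the mutants, and their part in the results above was not tested. The summed RPKM of 5 morning-phased clock genes was 33.8 to 36.6 in Col, 14.7 to 19.1 in hda6-6, 25.5 to 26.6 in hda5-1, 17.5 to 21.0 in hda9-1, with fve-4 at 19.5 and fld-6 at 27.4, with 4, 3, 4, 4 and 1 of the 5 called lower. CCA1, the clock gene whose product binds LHCB promoters, was at 3.24 RPKM in Col, 0.679 in hda6-6, 0.772 in hda5-1, 0.516 in hda9-1 and 0.329 in fve-4 (means). In fld-6 CCA1 was not called, and the morning-phased gene called there was PRR9 (log2 fold change -2.07). Of 6 evening-phased clock genes, 3, 2, 2, 2 and 1 were called lower and 1, 1, 1, 1 and 0 higher. The lower calls of both clock lists were above the shares of all genes given with the pathway lists. The time of day at harvest was not given in the sources used here.

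Markers of other tissues and of senescence were examined in the same way, and their part was not tested either. Of 20 root markers, 6 were called higher in hda6-6 (30%, all genes 18.8%), 4 in hda5-1 (20%, all genes 15.0%) and 6 in hda9-1 (30%, all genes 14.7%), and none in fve-4 or fld-6, while their summed level was 1604 to 1894 RPKM in Col, 1511 to 1893 in hda6-6, 1378 to 1693 in hda5-1, 1335 to 1676 in hda9-1, with fve-4 at 1868 and fld-6 at 1954. The ranges of these sums in hda6-6, hda5-1 and hda9-1 overlapped that of Col. The median log2 fold change of the 20 markers was 0.8 in hda6-6, 0.41 in hda5-1, 0.79 in hda9-1, 0.4 in fve-4 and 0.15 in fld-6. For all genes the medians were 0.05, 0.04, 0.08, 0.19 and 0.02 in the same order. None of the markers was called lower in hda6-6, hda5-1 or hda9-1. Of 9 leaf senescence genes, 2, 1, 1, 2 and 0 were called higher and 4, 4, 3, 1 and 0 lower, the higher calls being 22.2, 11.1, 11.1, 22.2 and 0% (all genes 18.8, 15.0, 14.7, 15.4 and 1.38%) and the lower calls 44.4, 44.4, 33.3, 11.1 and 0% (all genes 14.9, 11.2, 10.1, 6.78 and 1.71%). Their summed level was 554 to 737 RPKM in Col, 861 to 1079 in hda6-6, 589 to 690 in hda5-1, 555 to 1176 in hda9-1, with fve-4 at 1726 and fld-6 at 909. The 6 flower markers summed to 5.28 to 7.17 RPKM in Col and 2.37 to 9.45 in the mutants, with hda9-1 above Col, hda6-6, hda5-1 and fld-6 below it and fve-4 within its range. The 6 seed markers summed to 0.18 to 2.1 RPKM in Col and 5.91 in the fve-4 library, and 1 of them was at 0 in Col.

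The 3 histone deacetylase mutants were last compared with each other over the whole set. Between hda6-6 and hda5-1, none of the 48 genes was called higher in hda6-6 (all genes 6.10%) and 2 were called lower, PETE1 and RBCS1B (all genes 6.22%). Between hda6-6 and hda9-1, 5 were higher in hda6-6 (all genes 12.3%), all of them LHCB genes, namely LHCB1.1, LHCB2.1, LHCB2.2, LHCB3 and LHCB4.2, and RBCS1B was lower (all genes 13.1%). Without hda6-6 replicate 2, the calls of LHCB2.2, LHCB3 and LHCB4.2 were lost. Between hda5-1 and hda9-1, LHCB2.2, LHCB2.3 and PETE1 were higher in hda5-1 (all genes 10.9%) and none was lower (all genes 9.92%). The shares of the 48 genes were below those of all genes in each of these comparisons, and no call reached 2-fold.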

How the data were processed

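Per the study's methods and the labels, poly-A RNA was sequenced on an Illumina HiSeq, reads were made with CASAVA 1.8 and mapped to TAIR10, and the authors deposited RPKM values computed with RackJ. Bowtie2 is named in the submitters' processing notes. Read counts, strandedness and the authors' handling of reads that match several genes are not given in the sources used here, so near-identical, overlapping and antisense genes cannot be separated. The smallest RPKM steps give an estimated depth of 17870000 to 25560000 reads per library.

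RPKM were tested with limma 3.58.1 (R 4.3.3) on log2(RPKM + 0.1) for the genes that exceeded 0.1 RPKM in 3 or more libraries. Genotype was the single factor, with an intensity trend and Benjamini-Hochberg adjustment within each comparison. Fold changes are on the log2(RPKM + 0.1) scale, which understates those of low genes. There were 8 comparisons, and 7 more were added after the data were seen. The fits were also run on simulated data, in which the noise of each gene was independent and had the same spread in all libraries. Such data cannot show whether fve-4 and fld-6 have the spread of the other genotypes. The p-values of fve-4 and fld-6 rest on the spread of the other genotypes. Apart from the 3 biological repeats that the study states for Col and hda6-6, nothing says that replicates were grown separately, and p-values may measure technical spread only.

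Values in every library are given for genes called past 2-fold and for the RBCS genes. The most expressed, most increased and most decreased gene of each role group is also given, for some of them only in Col and 1 mutant. Other genes were added after their values were seen. The members, lists and motifs were chosen with earlier results of these data known. Alternatives were another pseudocount (1), no filter, 3 other scalings, no trend, a replicate block, only the 2 genotypes compared and each library left out. Of 33602 gene identifiers, 32835 were found in the RefSeq annotation of TAIR10.1, from which positions and promoters come. Python 3.11.15 was used for tables and figures.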

Additional observations from a re-analysis of the deposited data

How the results depend on the processing

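The number of the 48 genes called (in both directions) was within 1.5 times of that reported under most alternatives. With the requirement of 2-fold it fell to 2 in hda6-6, 4 in hda5-1 and 3 in hda9-1 against Col, and to 0 in each comparison among hda6-6, hda5-1 and hda9-1. With only the 2 genotypes compared in the fit it was 5 in hda9-1 and 4 in fve-4 against Col. Between hda5-1 and hda9-1, 3 calls became 1 with no filter on low values, with no intensity trend and under trimmed-mean scaling. When single libraries were left out, the number ranged from 7 to 10 in hda6-6, 7 to 9 in hda5-1, 7 to 11 in hda9-1 and 8 to 9 in fve-4 against Col, and was 0 in fld-6. It was 7 in hda6-6 without Col replicate 1 or 3 or without hda6-6 replicate 1 or 3. Among mutants it was 2 for hda6-6 against hda5-1, 3 to 6 for hda6-6 against hda9-1 (3 without hda6-6 replicate 2) and 1 to 3 for hda5-1 against hda9-1 (1 without replicate 2 or 3 of either). A fit of only fve-4 and fld-6 was not run, since it leaves no residual degrees of freedom.

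In fve-4 the median of all genes was 0.19 in the reported fit and 0.00 under median-of-ratios scaling, under which the number called lower was 12, against 11 under trimmed-mean scaling and 10 under the nuclear total. Of 71 single-gene calls under the alternatives, 765 of 891 values stayed past the threshold, 126 did not and none changed sign. Of these calls 35 held under every alternative and 36 were lost under at least 1.

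The replicate numbers were not used to pair samples. Deviations of libraries with the same number correlated between -0.071 and 0.17, and those with different numbers between -0.181 and 0.223. All pairs of replicate 1 libraries correlated positively, from 0.088 to 0.17. The fve-4 and fld-6 libraries are also labelled replicate 1, and they were compared with all Col replicates. With the replicate number as a block, the number called was 14 in hda6-6, 13 in hda5-1, 11 in hda9-1, 10 in fve-4 and 0 in fld-6 against Col, and 2, 6 and 3 among the mutants.

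Only LHCB4.3 is limited by depth, at an estimated 95 to 374 reads.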

Other observations

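The neighbours of PETE1 on chromosome 1 were looked at after its values were seen. Of the 3 genes on each side, 4 were higher in hda5-1 than in Col by limma, where 15.0% of all genes were. AT1G76090, the next gene, was at 43.3 RPKM in Col and 213 in hda5-1 (log2 fold change 2.29, adjusted p = 1.7e-07), AT1G76070 at 14.2 and 35.3 (1.31, adjusted p = 2.97e-06), AT1G76130 at 2.47 and 7.22 (1.51, adjusted p = 6.04e-06) and AT1G76120 at 2.76 and 6.45 (1.2, adjusted p = 6.98e-05). AT1G76080 and AT1G76110 were not called (0.33 and 0.06, adjusted p = 0.062 and 0.783).

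Neighbours of genes that fell in fve-4 were looked at in the same way. Beside LHCB2.1, the 3 annotated genes on each side were at 0 RPKM in Col. Beside PSBY, AT1G67750 was lower in fve-4 (log2 fold change -1.0, limma adjusted p = 0.0389) and AT1G67710 higher (1.48, adjusted p = 0.00162). Beside LHCB1.1, only LHCB1.2 was called, and beside LHCB2.3, only AT3G27710, higher in fve-4 (1.72). AT3G27710 was at 0.0565 RPKM in Col and 0.415 in the fve-4 library, near the filter at 0.1 RPKM.

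ELIP1, an early light-induced relative of the antenna proteins, was at 2.50 RPKM in Col, 0.447 in hda6-6, 0.779 in hda9-1 and 0.0969 in fve-4 (limma adjusted p at most 0.00591). At 1.52 RPKM in hda5-1 and 0.802 in fld-6 it was not called (adjusted p = 0.213 and 0.16). The 10 chloroplast-encoded partner genes, whose RNA is poorly captured by poly-A selection, had no call, and their summed level varied from 97.6 to 482 RPKM between the Col libraries and was 995 RPKM in the fld-6 library.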
